A study of Mus musculus with 24 samples.

Results

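The comparison set sons of nicotine-treated males against sons of saline-treated males in the dorsal hippocampus, over all expressed genes. It used 6 of the 24 RNA-seq libraries of the series: 3 from the dorsal hippocampus of nicotine-sired sons and 3 from that of saline-sired sons, chosen by the labelled paternal treatment, sex and region. All animals were C57BL/6J mice, and it was the fathers (sires), not the offspring, that are labelled as treated with nicotine or saline. The series also holds daughters of both kinds of sire and the ventral hippocampus of the same 12 animals, which served here for tests of whether the difference in sons was shared. The labels used here give no dose, no age and no number of sires. Each combination of sire treatment and sex carries 1 number of its own in the library titles, which may mark a sire or a litter and cannot be told apart from the sire treatment of the sons. The p-values below measure the spread between the 3 libraries of a group, pooled over all groups of the fit. For the dorsal hippocampus of sons this includes the daughters. Whether the 3 libraries of a group came from separate sires is not stated. The spread may be partly technical and may not include that between sires.

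The hippocampus is built from granule and pyramidal neurons that serve memory and the control of stress responses, and nicotine acts there on nicotinic acetylcholine receptors, ion channels opened by acetylcholine. Several of the gene groups described below belong to general cellular programmes. Chaperones of the endoplasmic reticulum (ER) fold secreted and membrane proteins, and their genes are switched on by the unfolded protein response through the factors ATF6 and XBP1. Cytosolic heat shock proteins fold proteins under the control of heat shock factor 1. The RNA-binding proteins RBM3 and CIRBP are known for being induced by mild cooling. Corticosterone, the main glucocorticoid of mice, induces a set of target genes through the glucocorticoid receptor.

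In the dorsal hippocampus of nicotine-sired sons, transcripts of ER chaperones, cytosolic heat shock proteins and glucocorticoid-induced genes were lower than in saline-sired sons, as were Lcn2 and a few other inflammatory transcripts. Transcripts of the cold-inducible proteins RBM3 and CIRBP, the transferrin receptor and the clock output factor DBP were higher. Some vessel-wall genes were higher and others lower, and the calls of smooth muscle and pericyte markers depended on single libraries. Of 19130 genes tested of 51912 in the table, 341 were called, that is, had an adjusted p under 0.05 in edgeR's quasi-likelihood test after Benjamini-Hochberg adjustment over every gene in the test. This is 1.78% of the genes, 90 higher (0.47%) and 251 lower (1.31%) in nicotine-sired sons, and 3362 genes had an unadjusted p under 0.05. The changes were small in most of the called genes, with a median size of 0.56 on the log2 scale among the higher and 0.49 among the lower. Changes of at least 2-fold were seen in 15 higher and 39 lower genes. In all 341 the values of the 2 groups did not overlap, as was also the case in 25.4% of all genes tested, 12.5% with nicotine-sired sons above and 12.9% with them below. Protein-coding genes made up 76 of the higher and 231 of the lower calls. The calls were spread over the autosomes and the X chromosome, between 0.609% of tested genes on chromosome 18 and 3.02% on chromosome 16, and 0 of 12 Y-linked genes were called. The count fell to 87, 99 and 113 without nicotine-sired sons A, B and C, to 116, 105 and 124 without saline-sired sons A, B and C and to 211 without saline-sired daughter B, and it was 624 without nicotine-sired daughter A.

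**Figure D1:**
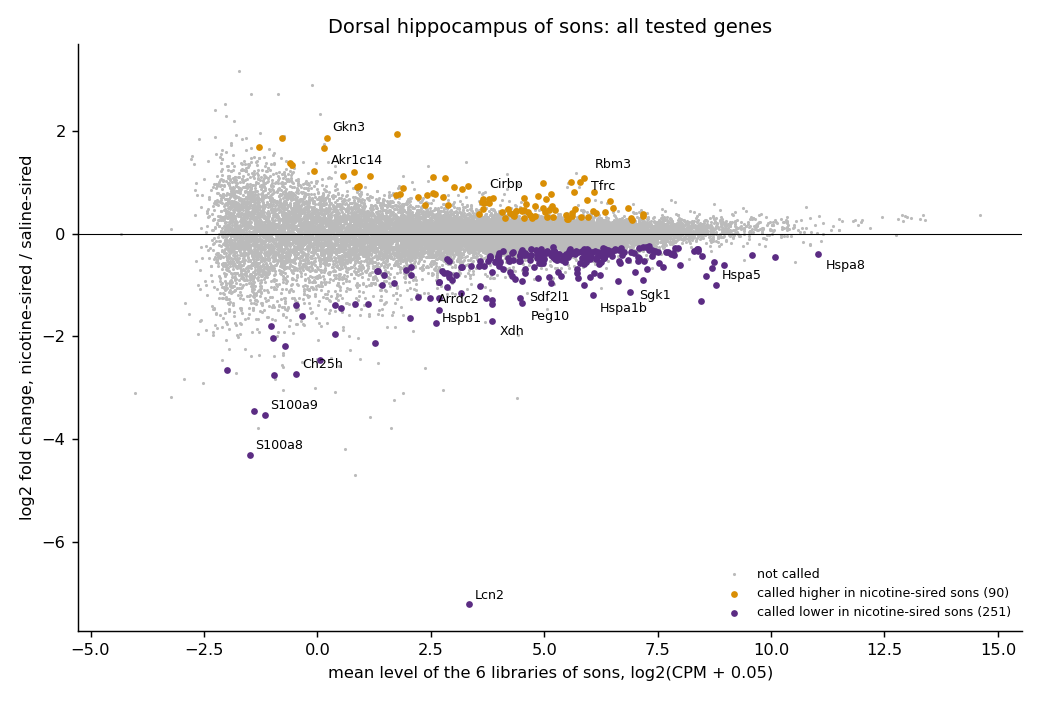
Log2 fold change (nicotine-sired over saline-sired sons, y axis) against mean level in log2(CPM + 0.05) (x axis) for the 19130 genes tested in the dorsal hippocampus. Orange points are the 90 genes called higher and purple points the 251 called lower in nicotine-sired sons, and Lcn2 lies lowest at -7.21.

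Sons' libraries held 33914755 to 40809102 counts in 23632 to 25417 detected genes. Ddx3y, on the Y chromosome, had 26.8 to 35.4 CPM (counts per 1000000 counts of the scaled library) in all 6, and Xist, which silences the X chromosome of females, at most 0.330 CPM. Markers of hippocampal neurons were present in both groups. The granule cell factor gene Prox1 had 62.2, 66.0 and 87.8 CPM in nicotine-sired sons and 75.1, 104 and 74.0 CPM in saline-sired sons, and of 16 granule and pyramidal cell markers 0 were called, with a median log2 fold change of 0.11. Choroid plexus tissue differed between libraries within both groups. Ttr, the transthyretin transcript of that epithelium, had 1890, 1670 and 34.8 CPM in nicotine-sired sons and 5080, 115 and 115 CPM in saline-sired sons. The first principal component of the 6 libraries held 41.9% of the variance and did not separate the groups, with scores of -15.9, -16.7 and 31.8 in nicotine-sired sons and -13.7, -7.37 and 21.9 in saline-sired sons. In tissue RNA, fewer cells of a type and less RNA per cell cannot be told apart.

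It was mostly the saline-sired sons that lay outside the other dorsal groups. In 190 of the 251 genes called lower, all 3 saline-sired sons were above the other 9 dorsal libraries (nicotine-sired sons and both groups of daughters), and in 60 of the 90 called higher all 3 were below them. Nicotine-sired sons lay below the other 9 libraries in 46 of the 251 and above them in 13 of the 90. Since the calls themselves need these groups to differ, the same count was made over all 19130 genes. Nicotine-sired sons were above the other 9 libraries in 179 genes (0.936%) and below in 200 (1.05%), while saline-sired sons were above in 616 (3.22%) and below in 475 (2.48%). For nicotine-sired daughters the counts were 126 and 132, and for saline-sired daughters 240 and 205. Comparing the sexes within a sire treatment, a comparison chosen after the data were seen, edgeR called 13 genes (0.068%) between nicotine-sired sons and daughters, 2 of them autosomal. Between saline-sired sons and daughters it called 366 (1.91%), of which 346 were autosomal, 215 higher and 131 lower in sons.

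ER chaperones and folding enzymes fell together: of 21 listed and tested members, 14 were lower and 0 higher in nicotine-sired sons. Their median log2 fold change was -0.60, against -0.000644 over all genes tested, and the count stayed between 11 and 14 in the refits without 1 library. This list and those below were chosen with earlier results of these data known. Their counts and medians therefore describe the members and are no independent test of the groups. Promoter windows of a few members are shown because the ER stress response element, the sequence through which the unfolded protein response acts, could be searched for in them. The letters searched were CCAAT and CCACG with 9 bases of any kind between them, on either strand, printed in capitals below, in windows of 250 bases before to 50 bases after the annotated starts (RefSeq, GRCm38.p6).
Hspa5 (chr2:34771840-34772139, plus strand): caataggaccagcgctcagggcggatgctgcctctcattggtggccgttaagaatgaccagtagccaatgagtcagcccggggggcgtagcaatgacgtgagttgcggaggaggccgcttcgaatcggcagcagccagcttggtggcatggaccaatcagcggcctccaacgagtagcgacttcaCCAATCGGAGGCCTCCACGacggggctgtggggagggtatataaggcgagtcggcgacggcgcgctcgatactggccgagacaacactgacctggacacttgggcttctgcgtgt
Hsp90b1 (chr10:86705395-86705694, minus strand): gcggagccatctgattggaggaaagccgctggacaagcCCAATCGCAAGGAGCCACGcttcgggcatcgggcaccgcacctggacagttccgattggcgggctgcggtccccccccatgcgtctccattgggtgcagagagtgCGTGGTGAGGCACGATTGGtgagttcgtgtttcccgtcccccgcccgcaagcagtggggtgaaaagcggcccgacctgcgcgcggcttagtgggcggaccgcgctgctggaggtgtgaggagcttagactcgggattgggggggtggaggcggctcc
Pdia6 (chr12:17266339-17266638, plus strand): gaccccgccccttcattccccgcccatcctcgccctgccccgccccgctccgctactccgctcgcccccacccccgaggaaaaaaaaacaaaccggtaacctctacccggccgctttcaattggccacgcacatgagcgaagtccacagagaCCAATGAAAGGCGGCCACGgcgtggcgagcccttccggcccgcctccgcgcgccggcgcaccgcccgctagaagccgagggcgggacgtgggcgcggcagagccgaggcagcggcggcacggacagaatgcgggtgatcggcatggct
Creld2 (chr15:88819396-88819695, plus strand): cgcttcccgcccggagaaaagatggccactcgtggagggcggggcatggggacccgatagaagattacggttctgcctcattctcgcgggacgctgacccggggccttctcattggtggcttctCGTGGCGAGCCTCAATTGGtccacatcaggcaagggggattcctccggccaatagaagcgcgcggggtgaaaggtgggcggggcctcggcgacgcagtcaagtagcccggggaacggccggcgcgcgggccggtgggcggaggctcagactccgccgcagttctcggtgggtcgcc
The window of Hsp90b1 held 2 matches and the others 1 each. The letters occur in 39 of 32851 windows (0.119%) and in 20 of the 12285 tested genes that have a window (0.163%). Among the 16 ER chaperone genes with a window they occur in 7, namely Calr, Canx, Creld2, Dnajc3, Hsp90b1, Hspa5 and Pdia6, all of which were called lower. They occur in 8 of the 195 genes called lower with a window (4.10%), the same 7 among them, and in 0 of the 64 called higher. The window of Sdf2l1 holds no match. A match says only that these letters are in the window.

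Hspa5, which encodes BiP, the main Hsp70 chaperone of the ER (ENSMUSG00000026864, chromosome 2, 34771970 to 34777547, GRCm38 here and below), had 284, 315 and 284 CPM in nicotine-sired sons and 603, 545 and 613 CPM in saline-sired sons. The groups lay far apart, with nicotine-sired sons at 50.1% of the fitted level of saline-sired sons (log2 fold change -1.0 ± 0.10 SE, adjusted p = 0.000431). Hsp90b1, the ER Hsp90 protein GRP94 (chromosome 10, 86690209 to 86705509), had 263, 297 and 255 CPM in nicotine-sired sons and 502, 472 and 479 CPM in saline-sired sons (-0.84 ± 0.08, adjusted p = 0.000388). Pdia6, a protein disulfide isomerase that forms disulfide bonds in new proteins (chromosome 12, 17266545 to 17284770), had 94.7, 102 and 104 CPM in nicotine-sired sons and 192, 184 and 188 CPM in saline-sired sons. It was the gene with the smallest p among those called lower (-0.91 ± 0.07, adjusted p = 0.000271). Hyou1, a nucleotide exchange factor of BiP, averaged 95.5 ± 4.06 CPM in nicotine-sired sons and 160 ± 4.88 CPM in saline-sired sons (SD, n = 3 each), a log2 fold change of -0.74 ± 0.06. Sdf2l1, an ER co-chaperone, had the largest change of the list (-1.25 ± 0.12), at 11.5, 14 and 13.5 CPM in nicotine-sired sons and 32.3, 30.0 and 30.4 CPM in saline-sired sons.

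Further members that fell were the lectin chaperones Calr (-0.61) and Canx (-0.31), the disulfide isomerases Pdia3 (-0.61) and Pdia4 (-0.81), the BiP co-chaperones Dnajb11 (-0.50) and Dnajc3 (-0.60), the oxidase Ero1lb (-0.37), and the secreted ER stress proteins Manf (-0.85) and Creld2 (-0.93). Creld2 had 14.9, 15.6 and 16.2 CPM in nicotine-sired sons and 34.2, 28.5 and 26.2 CPM in saline-sired sons, without overlap. Those that did not pass included the disulfide isomerase P4hb (-0.17, adjusted p = 0.201) and the prolyl isomerase Ppib (-0.08, adjusted p = 0.614). The calls of Canx and Ero1lb ended in 10 and 8 of the 12 refits without 1 library, and that of Pdia4 in 2. Their highest adjusted p-values over all refits were 0.147, 0.131 and 0.0580. Manf and Pdia6 have exon sequence opposite another coding gene (146 and 50 bp). Since the strand setting of the counting is not given in the sources used here, such genes are uncertain.

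Of 21 unfolded protein sensors, transcription factors and ER-associated degradation genes, 4 were lower and 0 higher (median -0.13). Xbp1, the transcription factor of the response, had 76.1, 89.5 and 78.7 CPM in nicotine-sired sons and 125, 122 and 117 CPM in saline-sired sons (-0.58 ± 0.08, adjusted p = 0.00384). The others that fell act in the removal of misfolded proteins: Herpud1 (-0.44 ± 0.08), Sel1l (-0.36 ± 0.07) and Derl3 (-1.96 ± 0.35). Derl3 was low, at 0.345, 0.536 and 0.671 CPM in nicotine-sired sons and 2.43, 1.94 and 1.68 CPM in saline-sired sons. The sensors Ern1 (-0.28, adjusted p = 0.347), Eif2ak3 (-0.23, adjusted p = 0.205) and Atf6 (-0.08, adjusted p = 0.683) did not pass. Nor did Atf4 (0.09, adjusted p = 0.589) and Ddit3 (-0.05, adjusted p = 0.839), which belong to the branch of the response that slows translation. The count was 1 without nicotine-sired son A or B or saline-sired son A, and 2 without saline-sired son B or C. Xbp1 was called in each of these refits.

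Cytosolic and mitochondrial heat shock proteins and their co-chaperones fell as a group: 20 of 30 were lower and 0 higher, with a median of -0.46. All 3 saline-sired sons were above the other 9 dorsal libraries in 25 of the 30. Hspa1b and Hspa1a, the stress-inducible Hsp70 genes, are near-identical copies that may share reads, and Hspa1a overlaps another coding gene on the opposite strand by 564 bp. Hspa1b had 37.8, 44.6 and 39.4 CPM in nicotine-sired sons and 84.2, 88.0 and 108 CPM in saline-sired sons (-1.20 ± 0.14, adjusted p = 0.00177). Hsph1, an Hsp110 exchange factor of the Hsp70 proteins (chromosome 5, 149614287 to 149636376), had 318, 321 and 323 CPM in nicotine-sired sons and 470, 509 and 543 CPM in saline-sired sons. The values of nicotine-sired sons were almost equal and those of saline-sired sons were all higher (-0.66 ± 0.08, adjusted p = 0.00172). Stip1, which links Hsp70 to Hsp90, averaged 152 ± 7.47 CPM in nicotine-sired sons and 238 ± 6.37 CPM in saline-sired sons (SD, n = 3 each; -0.64 ± 0.06, adjusted p = 0.000388). Hspa8, the constitutive Hsp70 gene, averaged 1810 ± 52.1 CPM in nicotine-sired sons and 2390 ± 26.9 CPM in saline-sired sons (-0.41 ± 0.06).

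The small heat shock protein gene Hspb1 had 6.77, 9.68 and 7.51 CPM in nicotine-sired sons and 25.3, 17.0 and 19.7 CPM in saline-sired sons, the largest change of the list (-1.37 ± 0.19, adjusted p = 0.00519). Cofactors of Hsp90 fell as well: Chordc1 (-0.78), Fkbp4 (-0.54) and Ahsa1 (-0.48). Hspa9, the mitochondrial Hsp70 gene, averaged 191 ± 4.34 CPM in nicotine-sired sons and 196 ± 6.75 CPM in saline-sired sons (SD, n = 3 each) and did not pass (-0.03, adjusted p = 0.791). The heat shock factor genes Hsf1 (-0.19, adjusted p = 0.259) and Hsf2 (0.08, adjusted p = 0.634) did not pass either. The count of lower genes was 10, 12 and 11 without nicotine-sired sons A, B and C and 13, 11 and 11 without saline-sired sons A, B and C. The call of Hspa8 ended without nicotine-sired son A (adjusted p = 0.0572). For Hsp90aa1 (-0.46) and Cryab (-0.68) the calls ended in several refits, with adjusted p-values of up to 0.0839 and 0.163.

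The heat shock element was searched as GAA, TTC and GAA or as TTC, GAA and TTC with 2 bases of any kind between the blocks, on either strand. It occurs in 198 of 32851 windows (0.603%) and in 68 of the 12285 tested genes with a window (0.554%). Of the 24 genes of the list with a window 4 hold it, Chordc1, Hspd1, Hspe1 and Hsph1. Among genes with a window it occurs in 4 of the 195 called lower (2.05%), the same 4, and in 1 of the 64 called higher (1.56%). A window of Hsph1 is shown as the example with its match, in capitals, after the annotated start (RefSeq, GRCm38.p6). The match begins at base 287 of this window. A further Hsph1 window, with another annotated start, holds the same match from base 266. Hspa1b and Stip1 hold no match in their windows.
Hsph1 (chr5:149636287-149636586, minus strand): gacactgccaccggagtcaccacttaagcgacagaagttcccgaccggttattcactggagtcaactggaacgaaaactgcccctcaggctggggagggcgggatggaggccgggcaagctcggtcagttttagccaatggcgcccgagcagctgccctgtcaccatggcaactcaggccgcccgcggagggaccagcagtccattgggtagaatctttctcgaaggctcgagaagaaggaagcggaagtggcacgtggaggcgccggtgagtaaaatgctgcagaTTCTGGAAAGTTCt

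Cold-inducible RNA-binding protein genes were higher in nicotine-sired sons. Rbm3 (chromosome X, 8138975 to 8145880) had 76.6, 82.8 and 78.3 CPM in nicotine-sired sons and 36.9, 40.3 and 35.8 CPM in saline-sired sons, with the groups well apart (1.07 ± 0.09, adjusted p = 0.000271). Cirbp (chromosome 10, 80165985 to 80172786) had 38.3, 43.3 and 43.5 CPM in nicotine-sired sons and 20.5, 21 and 21.5 CPM in saline-sired sons (0.99 ± 0.09, adjusted p = 0.000388). Hnrnpdl, a ribonucleoprotein that takes part in splicing, had 107, 105 and 105 CPM in nicotine-sired sons and 69.0, 75.2 and 60.1 CPM in saline-sired sons (0.64 ± 0.08, adjusted p = 0.00196). The splicing factor Srsf5 also rose (0.65 ± 0.11), while the splicing regulator Tra2a (-0.39 ± 0.07) and the RNA helicase Ddx17 (-0.35 ± 0.07) fell. In the whole list of 30 cold-responsive RNA-binding proteins, splicing factors and nuclear-retained RNAs, 5 were higher and 2 lower, and the median was -0.05. The splicing factor Srsf3 (-0.18, adjusted p = 0.174) and the nuclear RNA Malat1 (-0.02, adjusted p = 0.977) were among the 23 that did not pass. Without nicotine-sired son A or saline-sired son C 3 were higher, and without any 1 of the 6 sons 0 were lower. The calls of Rbm3, Cirbp and Hnrnpdl held in all 12 refits without 1 library.

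**Figure D2:**
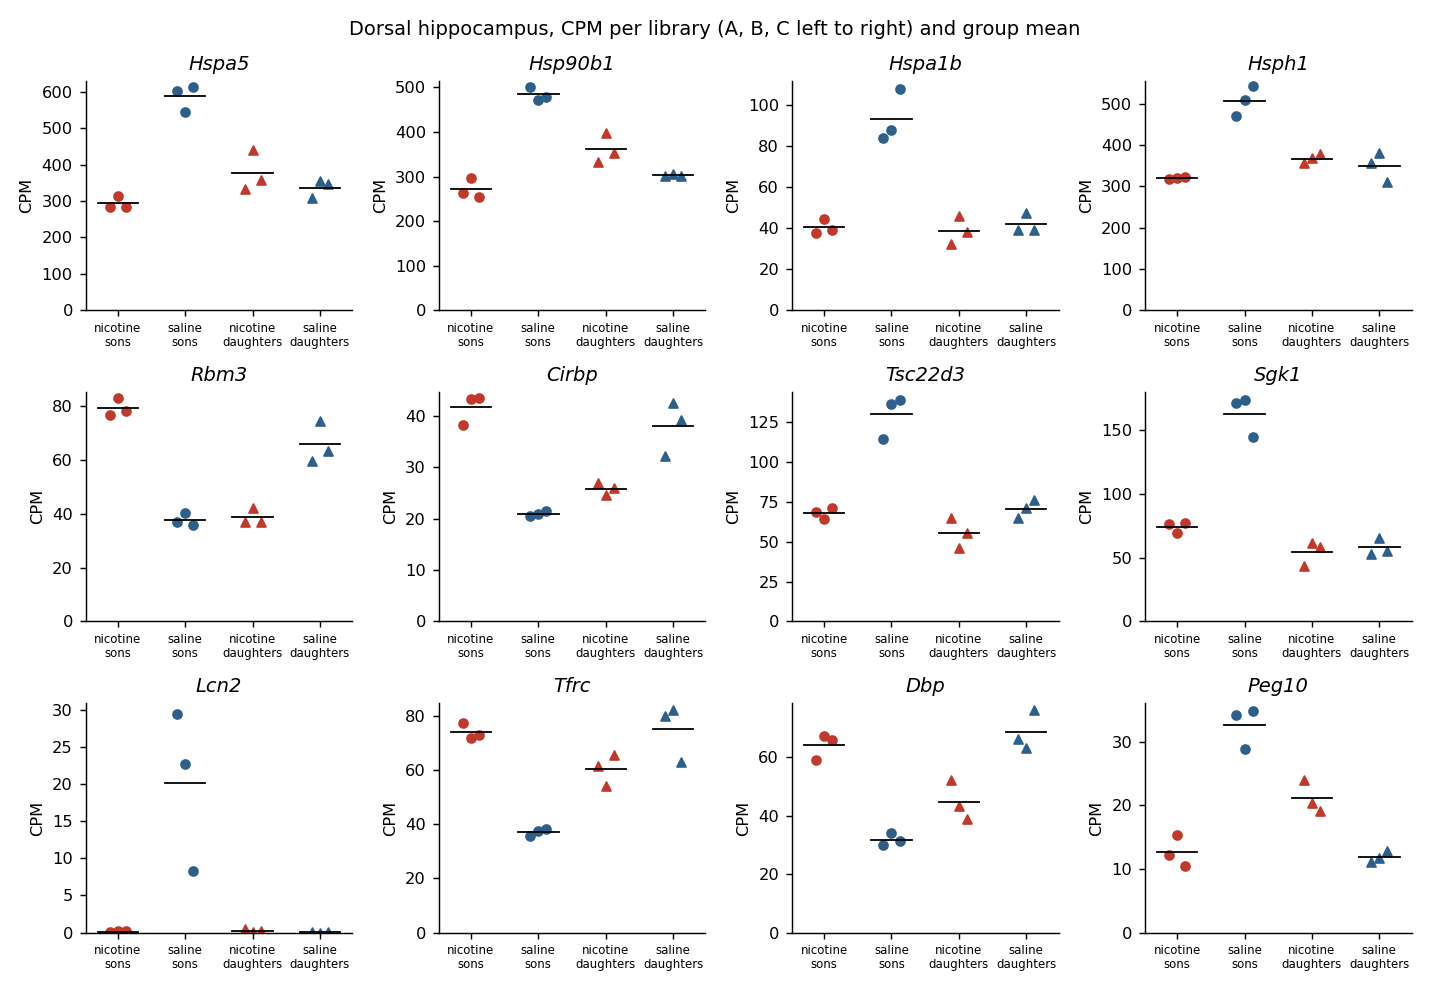
Levels of 12 genes in CPM (y axis, from 0) in each dorsal library of nicotine-sired sons, saline-sired sons, nicotine-sired daughters and saline-sired daughters (A, B and C from left to right), with a bar at each group's mean. For Hspa5 the means are 294, 587, 377 and 337 CPM in that order, and the 3 saline-sired sons lie above all other libraries in Hspa5, Hsp90b1, Hspa1b, Hsph1, Tsc22d3, Sgk1, Lcn2 and Peg10.

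Glucocorticoid-induced genes were lower in nicotine-sired sons: 13 of 26 fell and 0 rose, with a median of -0.61. The count was 9, 9 and 10 without nicotine-sired sons A, B and C and 10, 9 and 9 without saline-sired sons A, B and C. All 3 saline-sired sons were above the other 9 dorsal libraries in 18 of the 26, and in 616 of all 19130 genes. Of the 13 that fell, Arrdc2, Hif3a, Galnt15 and Xdh had entered the list with their lower level already known from these data. Without them 9 of 22 fell (median -0.44). Tsc22d3, which encodes the anti-inflammatory leucine zipper protein GILZ (chromosome X, 140539528 to 140600659), had 68.6, 64.4 and 71.0 CPM in nicotine-sired sons and 114, 136 and 139 CPM in saline-sired sons (-0.93 ± 0.12, adjusted p = 0.00196). Sgk1, the serum- and glucocorticoid-regulated kinase (chromosome 10, 21882184 to 21999903), had 76.2, 69.4 and 76.8 CPM in nicotine-sired sons and 171, 173 and 144 CPM in saline-sired sons (-1.13 ± 0.12, adjusted p = 0.000924). In both genes every nicotine-sired son was below every saline-sired son by a wide margin. The transcription factors Klf15 (-0.69 ± 0.10) and Zbtb16 (-0.75 ± 0.14), the sulfotransferase Sult1a1 (-0.80 ± 0.12) and the lipase inhibitor Angptl4 (-1.38 ± 0.22) fell too. So did Nfkbia (-0.43), the inhibitor of NF-kappa-B, Pdk4 (-0.64), a kinase that turns down pyruvate oxidation, and the astrocyte connexin gene Gjb6 (-0.58).

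Among the members added with earlier results known, Xdh, the xanthine dehydrogenase gene of purine breakdown, had 5.74, 7.03 and 7.64 CPM in nicotine-sired sons and 23.4, 25.3 and 17.6 CPM in saline-sired sons (-1.70 ± 0.17). Arrdc2, an arrestin-domain gene, averaged 8.37 ± 0.303 CPM in nicotine-sired sons and 20.5 ± 4.05 CPM in saline-sired sons (SD, n = 3 each), and Hif3a, a hypoxia-inducible factor, 3.37 ± 0.307 CPM in nicotine-sired sons and 9.43 ± 0.633 CPM in saline-sired sons. Members that did not pass were not uniform. Fkbp5, a co-chaperone of the glucocorticoid receptor, had 58.6, 55.9 and 68.7 CPM in nicotine-sired sons and 78.2, 93.2 and 79.3 CPM in saline-sired sons without overlap, yet an adjusted p of 0.184 (-0.45). Per1, which is both a target and a clock gene, averaged 75.6 ± 0.774 CPM in nicotine-sired sons and 71.7 ± 5.19 CPM in saline-sired sons (0.08, adjusted p = 0.799). Plin4, a lipid droplet coat gene chosen here after its values were seen, averaged 4.12 ± 0.759 CPM in nicotine-sired sons and 38 ± 8.60 CPM in saline-sired sons and did not pass (-3.20 ± 0.67, adjusted p = 0.0541). The genes of the receptors themselves did not pass: Nr3c1, the glucocorticoid receptor (0.06, adjusted p = 0.828), and Nr3c2, the mineralocorticoid receptor (0.40, adjusted p = 0.493). The calls of Zbtb16, Nfkbia, Pdk4 and Gjb6 ended in 5 or 6 of the 12 refits without 1 library, with adjusted p-values of up to 0.107, and that of Angptl4 ended without nicotine-sired son B (adjusted p = 0.0512).

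A glucocorticoid response element was searched as GNACA and TGTNC with 3 bases of any kind between them, on either strand. It occurs in 156 of 32851 windows (0.475%) and in 53 of the 12285 tested genes with a window (0.431%). Of the 22 list members with a window 2 hold it, Sgk1, which has several windows, and Mt1, which was not called. Among genes with a window it occurs in 5 of the 195 called lower (2.56%) and 0 of the 64 called higher. One of the 6 windows of Sgk1 is shown with the match in capitals (RefSeq, GRCm38.p6), and the windows of Tsc22d3 hold none.
Sgk1 (chr10:21993640-21993939, plus strand): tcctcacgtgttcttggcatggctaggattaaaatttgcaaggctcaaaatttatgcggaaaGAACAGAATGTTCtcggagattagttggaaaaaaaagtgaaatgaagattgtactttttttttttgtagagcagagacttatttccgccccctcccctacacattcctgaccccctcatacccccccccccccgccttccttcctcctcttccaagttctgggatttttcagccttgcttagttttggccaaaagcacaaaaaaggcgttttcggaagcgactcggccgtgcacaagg

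Lcn2, the secreted siderophore-binding protein lipocalin 2 that rises in acute-phase responses (chromosome 2, 32384633 to 32388252), had 0.0985, 0.149 and 0.155 CPM in nicotine-sired sons and 29.4, 22.7 and 8.35 CPM in saline-sired sons. These levels rest on 4, 5 and 6 counts in nicotine-sired sons and 1246, 915 and 337 counts in saline-sired sons. It was the largest change among the called genes (-7.21 ± 0.75, adjusted p = 0.00196), although saline-sired son C had less than the other two. S100a8 and S100a9, the calprotectin subunits made in large amounts by neutrophils, were very low throughout. S100a8 had 1 count in each nicotine-sired son and 22, 26 and 24 counts in the saline-sired sons (-4.31 ± 0.64, adjusted p = 0.00623), and DESeq2 gave no adjusted p for either gene. S100a9 fell by 3.52 on the log2 scale (adjusted p = 0.0412). The other 6 of 8 neutrophil markers were below the low-count filter, and the defining marker Ly6g was at 0 in all but 1 of the 6 libraries, at 0.0248 CPM in saline-sired son B. The summed level of the 8 markers was 0.119 to 0.345 CPM in nicotine-sired sons and 1.59 to 2.21 CPM in saline-sired sons, and its part in the levels of Lcn2 was not tested.

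Of 17 tested acute-phase and inflammatory genes, 3 were lower and 0 higher (median -0.63). Besides Lcn2 these were Ch25h, the cholesterol 25-hydroxylase (-2.73 ± 0.44, adjusted p = 0.0104), and Osmr, the oncostatin M receptor subunit (-0.95 ± 0.19, adjusted p = 0.0287). Ch25h had 0.197, 0.119 and 0.206 CPM in nicotine-sired sons and 1.56, 1.12 and 0.867 CPM in saline-sired sons. Socs3, a feedback inhibitor of cytokine signalling (-1.59, adjusted p = 0.104), Lrg1 (-1.99, adjusted p = 0.105) and the adhesion molecule Icam1 (-1.03, adjusted p = 0.0535) were without overlap between the groups but did not pass. The cytokine genes Il1b, Il6 and Tnf and the chemokine gene Ccl2 were below the filter. Without nicotine-sired son A or B 1 gene was called, Lcn2.

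An iron-handling gene was higher, and genes of the vessel wall changed in both directions. Tfrc, the transferrin receptor that takes up iron (chromosome 16, 32608920 to 32632794), had 77.2, 71.6 and 72.7 CPM in nicotine-sired sons and 35.6, 37.4 and 38.3 CPM in saline-sired sons (0.99 ± 0.10, adjusted p = 0.000388). It was 1 of 12 tested iron-handling genes to pass. The iron exporter Slc40a1 (0.41, adjusted p = 0.116) and the ferritin heavy chain Fth1 (0.27, adjusted p = 0.308) did not. Of 24 endothelial and blood-brain barrier markers, 4 were higher and 2 lower (median 0.11). Higher were the endothelial membrane protein Itm2a (0.73 ± 0.08), the arterial marker Gkn3 (1.85 ± 0.24), the monocarboxylate transporter Slc16a1 (0.53 ± 0.08) and the organic anion transporter Slco1a4 (0.69 ± 0.14). Gkn3 had 1.85, 1.94 and 1.42 CPM in nicotine-sired sons and 0.542, 0.422 and 0.471 CPM in saline-sired sons. Lower were Mfsd2a, the transporter of lysophospholipids with docosahexaenoic acid (-0.76 ± 0.13), and the glucose transporter Slc2a1 (-0.52 ± 0.11). Pan-endothelial markers did not pass, with Pecam1 at -0.19 (adjusted p = 0.446) and Cldn5 at 0.26 (adjusted p = 0.311). Without nicotine-sired son A or B or saline-sired son B or C 0 of the 2 were lower, and without nicotine-sired son C, saline-sired son A or saline-sired daughter B 1 was. Of the higher markers, the call of Slco1a4 ended in 8 of the 12 refits without 1 library and in the fit of the sons alone. Those of Itm2a, Gkn3 and Slc16a1 held in all 12.

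Of 10 pericyte and smooth muscle markers, 3 were higher and 0 lower (median 0.40): the smooth muscle myosin Myh11 (1.08 ± 0.19), the smooth muscle actin Acta2 (0.87 ± 0.19) and the pericyte-secreted vitronectin Vtn (0.49 ± 0.11). Myh11 had 8.22, 9.71 and 10.3 CPM in nicotine-sired sons and 4.19, 4.32 and 4.86 CPM in saline-sired sons. The regulatory light chain of smooth muscle myosin, Myl9, rose too (0.92 ± 0.14, adjusted p = 0.00754), and the pericyte receptor Pdgfrb did not pass (0.24, adjusted p = 0.241). The count was 0 or 1 without any 1 of the 6 sons and 1 without saline-sired daughter B. Among glia, the microglial ADP receptor P2ry12 rose, at 32.2, 33.6 and 33.6 CPM in nicotine-sired sons and 21.5, 22.4 and 24.6 CPM in saline-sired sons (0.54 ± 0.08, adjusted p = 0.00630), 1 of 14 microglia markers called. Of 21 oligodendrocyte lineage markers only the lineage factor Olig2 passed (-0.42 ± 0.09, adjusted p = 0.0395), and its call ended without any 1 of the 6 sons.

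Dbp, a transcription factor that acts as an output of the circadian clock (chromosome 7, 45705088 to 45710203), had 59.0, 67.2 and 66.0 CPM in nicotine-sired sons and 29.9, 34.2 and 31.5 CPM in saline-sired sons (1.01 ± 0.11, adjusted p = 0.000687). It has 539 bp of exon opposite the coding gene Sphk2 and is uncertain to that extent. It was the only 1 of 22 clock genes called. Nr1d1, a repressor of the clock, was near the threshold with 100, 107 and 109 CPM in nicotine-sired sons and 75.3, 85.3 and 76.9 CPM in saline-sired sons (0.41, adjusted p = 0.0504), while DESeq2 and the fit of the 6 sons alone each called 3 clock genes higher and 1 lower. Of 23 immediate early genes, which neurons switch on with activity, Junb (0.80 ± 0.14, adjusted p = 0.0146) and Egr4 (0.77 ± 0.16, adjusted p = 0.0358) rose. The list had a median of 0.38, with 17 of 23 values positive. Fos averaged 23.4 ± 5.42 CPM in nicotine-sired sons and 12.9 ± 1.78 CPM in saline-sired sons and Arc 286 ± 19.1 CPM in nicotine-sired sons and 187 ± 8.98 CPM in saline-sired sons (SD, n = 3 each), and neither passed (adjusted p = 0.337 and 0.294). The count was 5 without nicotine-sired daughter A, 0 without nicotine-sired son B or C or saline-sired son B or C, and 1 without nicotine-sired son A or any 1 saline-sired daughter. DESeq2 called 6 and the fit of the 6 sons alone 6.

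Of 41 tested imprinted genes, which are expressed from the copy of 1 parent, 3 were lower and 0 higher (median -0.13). Peg10, a paternally expressed gene derived from a retrotransposon (chromosome 6, 4747306 to 4760517), had 12.2, 15.3 and 10.5 CPM in nicotine-sired sons and 34.1, 28.8 and 34.8 CPM in saline-sired sons (-1.36 ± 0.13, adjusted p = 0.000388). Its neighbour on chromosome 6, Asb4 (-2.19 ± 0.44), and the paternally expressed zinc finger gene Peg3 (-0.43 ± 0.10) fell as well, at adjusted p = 0.0302 and 0.0400. Asb4 was low, at 0.123, 0.328 and 0.155 CPM in nicotine-sired sons and 1.06, 0.993 and 0.694 CPM in saline-sired sons. The call of Peg10 held in all 12 refits without 1 library, and it was the only imprinted gene called without nicotine-sired son A or C or any 1 saline-sired son. Of 36 DNA methylation and histone-modifying enzymes, the deacetylase Hdac3 was higher (0.28 ± 0.06) and the methyltransferases Kmt2d (-0.33 ± 0.06) and Kmt2a (-0.36 ± 0.08) lower. The median of that list was -0.03. The 3 calls ended without nicotine-sired son B or C or any 1 saline-sired son, and their highest adjusted p over the 12 refits without 1 library was 0.0995, 0.107 and 0.185.

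Of 15 tested FoxO and fasting-responsive genes, 4 were lower and 0 higher (median -0.37): Angptl4 and Pdk4, already given, the insulin receptor substrate Irs2 (-0.37 ± 0.06) and the thioredoxin-binding protein Txnip (-0.66 ± 0.14). Irs2 had 79.2, 72.2 and 77.4 CPM in nicotine-sired sons and 94.5, 96.2 and 104 CPM in saline-sired sons. The count was 1 or 2 without any 1 of the 6 sons. Among genes in no list, the PDZ-domain gene Pdzd2 (-0.86 ± 0.10, adjusted p = 0.00104) and the chromatin-binding gene Arid5b (-0.85 ± 0.11, adjusted p = 0.00196) fell. The microtubule-associated gene Eml2 (0.50 ± 0.07, adjusted p = 0.00404), the kinase gene Matk (0.50 ± 0.08, adjusted p = 0.00660) and the steroid dehydrogenase gene Akr1c14 (1.66 ± 0.28, adjusted p = 0.0119) rose. Akr1c14 was low, at 1.77, 1.40 and 1.63 CPM in nicotine-sired sons and 0.424, 0.447 and 0.644 CPM in saline-sired sons. Its call by edgeR ended in 3 of the 12 refits without 1 library, with adjusted p-values of up to 0.0582. Those of Pdzd2, Arid5b, Eml2 and Matk held in all 12. Of the 341 called genes, 18 of the 90 higher and 69 of the 251 lower are in 1 of the lists.

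**Figure D3:**
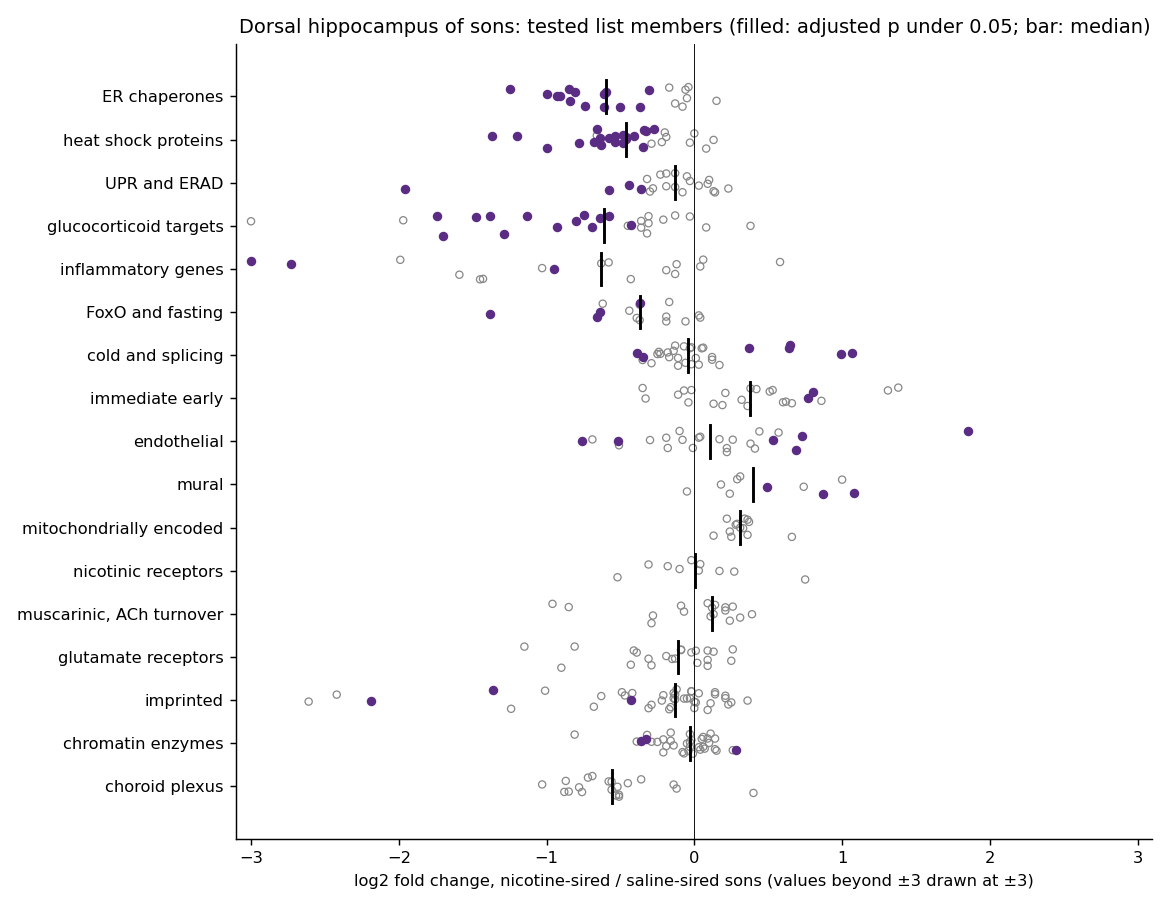
Log2 fold changes (nicotine-sired over saline-sired sons, x axis) of all tested members of 17 gene lists (rows) in the dorsal hippocampus. Filled points passed the test, open points did not, and black bars are list medians, which lie at -0.60 for ER chaperones, -0.46 for heat shock proteins, -0.61 for glucocorticoid targets and 0.00 for nicotinic receptors.

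Nicotinic receptor genes were tested because nicotine acts on their products. Of 16 subunit genes 10 passed the low-count filter and edgeR called 0, with a median log2 fold change of 0.00. An unadjusted p under 0.05 was found in 1 of the 10, and in 3362 of all 19130 genes tested. Chrna4 and Chrnb2 encode the main high-affinity receptor of the brain. Chrna4 had 18.8, 18.8 and 12.5 CPM in nicotine-sired sons and 18.4, 17.7 and 26.0 CPM in saline-sired sons, with overlap (-0.31 ± 0.31, adjusted p = 0.642). Chrnb2 had 51.9, 47.1 and 50 CPM in nicotine-sired sons and 45.9, 48.2 and 51.1 CPM in saline-sired sons (0.04 ± 0.07, adjusted p = 0.817), with 1365 bp of exon opposite another coding gene. Chrna7, the subunit of the low-affinity receptor, had 10, 8.31 and 9.11 CPM in nicotine-sired sons and 8.10, 9.21 and 12.2 CPM in saline-sired sons (-0.10 ± 0.20, adjusted p = 0.833). Chrna5, an accessory subunit, had 7.86, 5.84 and 7.66 CPM in nicotine-sired sons and 3.75, 4.87 and 4.11 CPM in saline-sired sons without overlap (0.75 ± 0.20, adjusted p = 0.0816), and DESeq2 called it (adjusted p = 0.0158). Without nicotine-sired daughter A, and without the low-count filter, edgeR called 1 nicotinic receptor gene higher. Of 17 tested genes for muscarinic receptors, acetylcholine turnover and receptor modulators edgeR called 0, with 8 at an unadjusted p under 0.05, and DESeq2 called 2 lower. In this list edgeR called 1 lower with the spread of all 24 libraries and 1 higher without nicotine-sired daughter A.

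Other receptor and transmitter lists gave no call by edgeR in the fit of the 12 dorsal libraries. Their counts at an unadjusted p under 0.05 are to be read against 3362 of all 19130 genes tested. Of 22 tested glutamate receptor genes 8 had an unadjusted p under 0.05 (DESeq2 called 2 lower, edgeR called 2 lower in the 6 sons alone and 1 lower without nicotine-sired daughter A), of 14 GABA-A subunits 4 (DESeq2 called 0) and of 23 monoamine receptors 4 (DESeq2 called 0). Unadjusted p-values under 0.05 were found in 1 of 9 neurotrophin genes and in 4 of 22 cholesterol genes, with no call by DESeq2 in either list. Of 17 interneuron genes 7 reached that unadjusted level, while 1 was called higher and 4 lower by DESeq2. For these interneuron genes edgeR called 1 higher and 3 lower with the choroid plexus covariate, 2 lower with the spread of all 24 libraries, 1 lower without nicotine-sired son A, and 1 higher and 1 lower without nicotine-sired daughter A. The GABA-synthesising enzymes Gad1 and Gad2 were near the threshold. Gad1 had 279, 233 and 215 CPM in nicotine-sired sons and 403, 297 and 322 CPM in saline-sired sons (-0.49 ± 0.12, adjusted p = 0.0645). Gad2 averaged 96.6 ± 20.6 CPM in nicotine-sired sons and 142 ± 19.7 CPM in saline-sired sons (SD, n = 3 each; -0.55 ± 0.13, adjusted p = 0.0648).

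Markers of neighbouring tissue and other library properties differed beside these results. The summed level of the 20 choroid plexus markers was 2960, 2610 and 224 CPM in nicotine-sired sons and 7710, 408 and 376 CPM in saline-sired sons, 0 were called and 0 had an unadjusted p under 0.05. Of 9 ventral hippocampus markers 8 had negative log2 fold changes, the median was -0.76 and 0 were called. Calb2, which marks ventral tissue and some interneurons, had 15.2, 25.2 and 12.4 CPM in nicotine-sired sons and 79.1, 30.4 and 36.9 CPM in saline-sired sons (-1.47 ± 0.55, adjusted p = 0.221). All 12 ependymal markers had negative values (median -0.94, 0 called). The 13 mitochondrially encoded messenger RNAs were all positive (median 0.31, smallest adjusted p = 0.0611), and their sum was 88400 to 99800 CPM in nicotine-sired sons and 70800 to 78300 CPM in saline-sired sons, without overlap. DESeq2 called 7 of them higher. Counts of noncoding genes opposite coding genes, as a percentage of the counts of those genes, were 0.285, 0.303 and 0.153 in nicotine-sired sons and 0.155, 0.289 and 0.134 in saline-sired sons, which overlap. With that percentage as a covariate edgeR called 144 genes, 139 of them among the 341, and 12 of 21 ER chaperones, 13 of 30 heat shock genes and 10 of 26 glucocorticoid targets were lower. Fitting the choroid plexus level along with the groups gave 450 calls, 336 of them among the 341. The part of ventral tissue, ependyma and mitochondrial transcripts in the results was not tested.

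Whether the difference in sons was shared by daughters was tested in the same fit as the difference between the sons' and the daughters' fold changes. In daughters edgeR called 6 of 19130 genes (0.0314%), 2 higher (0.0105%) and 4 lower (0.0209%), with 2547 at an unadjusted p under 0.05. The test of the difference between the sexes called 428 (2.24%), 162 with a higher (0.847%) and 266 with a lower value (1.39%) in sons than in daughters. Among the lower were 12 of 21 ER chaperones, 14 of 30 heat shock genes and 7 of 26 glucocorticoid targets. Both comparisons use the same sons, so the counts are not independent. Hspa5 averaged 294 CPM in nicotine-sired and 587 CPM in saline-sired sons, against 377 CPM in nicotine-sired and 337 CPM in saline-sired daughters, and the difference of the fold changes was -1.16 (adjusted p = 0.00297). Rbm3 differed in opposite directions, at 79.2 CPM in nicotine-sired and 37.7 CPM in saline-sired sons, against 38.7 CPM in nicotine-sired and 65.9 CPM in saline-sired daughters (difference 1.84, adjusted p = 5.31e-05). It fell in nicotine-sired daughters (-0.77, adjusted p = 0.0164), and so did Eml2 (-0.50, adjusted p = 0.0400). Peg10 had the opposite arrangement, with 21.1 CPM in nicotine-sired and 11.9 CPM in saline-sired daughters (0.83, adjusted p = 0.0826, difference -2.19, adjusted p = 0.000278). For Tsc22d3 the difference between the sexes did not pass (-0.59, adjusted p = 0.0769), with -0.93 in sons and -0.34 in daughters. For Hif3a it did not pass either (-0.63, adjusted p = 0.299). The count of 428 was between 76 (without saline-sired daughter B) and 837 (without nicotine-sired daughter A). It also moved by more than 1.5 times without nicotine-sired sons A (116), B (273) and C (94), nicotine-sired daughters B (282) and C (92), saline-sired sons A (142) and B (121), and saline-sired daughter A (241).

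**Figure D4:**
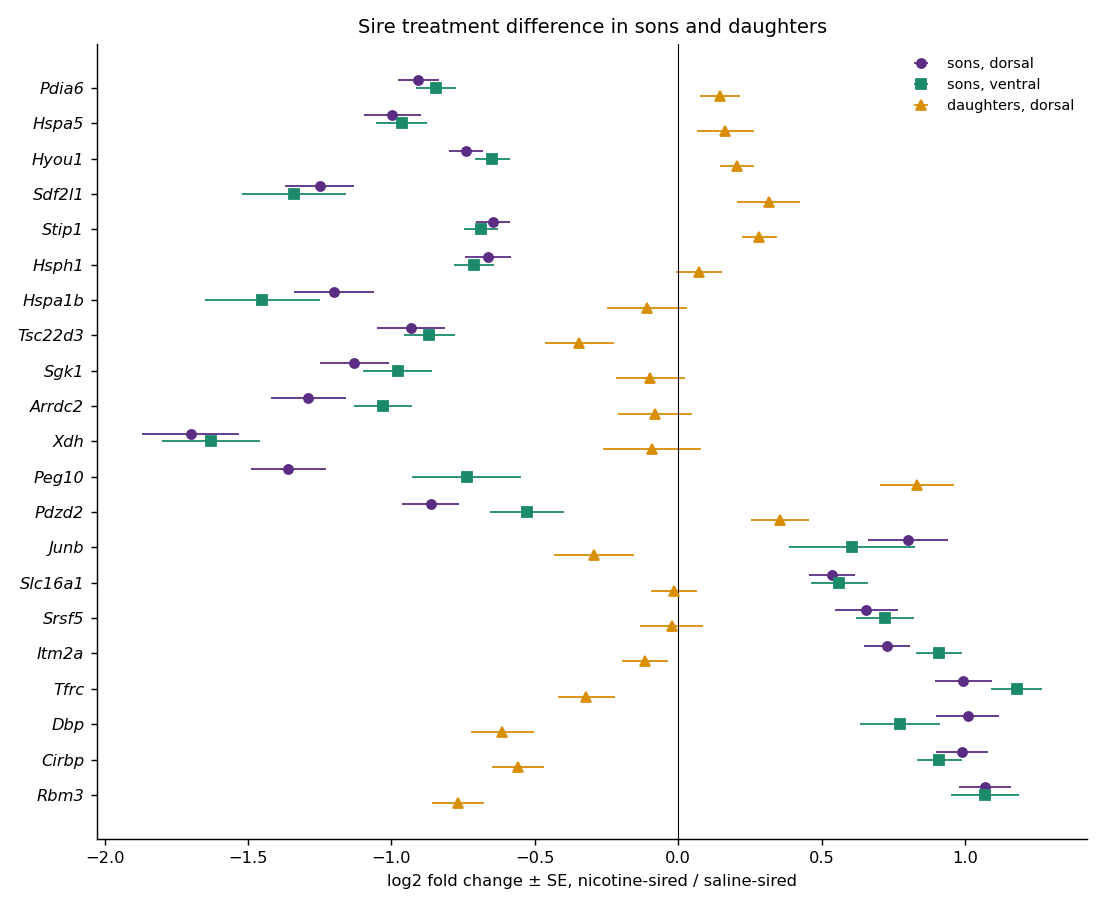
Log2 fold change ± SE (nicotine-sired over saline-sired, x axis) of 21 genes in the dorsal hippocampus of sons, the ventral hippocampus of sons and the dorsal hippocampus of daughters. Hspa5 lies at -1.0, -0.96 and 0.16 and Rbm3 at 1.07, 1.07 and -0.77 in that order.

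The same animals' ventral hippocampus gave 617 called genes of 19224 (3.21%), 349 higher (1.82%) and 268 lower (1.39%). In a fit of all 24 libraries, edgeR called 0 of 19849 genes for a difference between the dorsal and the ventral fold change of sons, with 1009 at an unadjusted p under 0.05, and DESeq2 called 1. A p that misses the threshold does not show that the regions had the same difference. ER chaperones were lower in 13 of 21 genes in the ventral hippocampus (median -0.52), heat shock genes in 22 of 30 (median -0.46) and glucocorticoid targets in 13 of 26 (median -0.52). Hspa5 had log2 fold changes of -1.0 ± 0.10 in the dorsal and -0.96 ± 0.09 in the ventral hippocampus, Sgk1 of -1.13 ± 0.12 and -0.98 ± 0.12, and Xdh of -1.70 ± 0.17 and -1.63 ± 0.17. Peg10 had -1.36 ± 0.13 in the dorsal and -0.74 ± 0.19 in the ventral hippocampus, where it did not pass (adjusted p = 0.0580). Junb passed in the dorsal (0.80) and not in the ventral hippocampus (0.61, adjusted p = 0.209), and the test of the region difference did not call it. Both regions came from the same animals, so the ventral values do not add animals.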

How the data were processed

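The deposited table holds the authors' read counts per gene for 51912 Ensembl gene IDs, not normalized, in 24 libraries. Per the labels' protocols, libraries of messenger RNA that keep the strand were made and read single-end at 150 bp over 3 lanes. The build was mm10 (GRCm38), and TopHat2 2.1.0, Cuffdiff 2.2.1.3 and Cufflinks are listed without a role, per the submitters' processing notes. Which tool counted the reads, with which strand setting and annotation release, is not given in the sources used here. Gene names and positions came from GENCODE M21, which matched 51719 IDs.

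From these counts, edgeR 4.0.16 (limma 3.58.1, R 4.3.3) was run with filterByExpr, TMM scaling and the robust quasi-likelihood F test. P-values were adjusted by Benjamini-Hochberg over every tested gene, with a threshold of 0.05. The 12 dorsal libraries entered 1 fit with a mean per group (common biological coefficient of variation 0.16), so all groups share the estimate of spread. The sex difference was a contrast in that fit, and the region difference one in a fit of all 24 libraries. A standard error is the absolute log2 fold change over the square root of F. CPM are counts per 1000000 of the TMM-scaled library size. The pipeline was tested on simulated data, and figures were drawn with matplotlib 3.10.9 (Python 3.11.15).

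The gene groups and the lists were chosen with earlier results of these data known. The rule for named genes took the 15 smallest p-values and the 10 largest changes at 1 CPM or more in each direction, list members that passed, the 3 smallest p-values of lists that did not, and the 8 smallest p-values of the sex difference. One gene that passed is not reported here. Other genes, such as list members that did not pass, were named with their values known. Alternatives were RLE scaling, a non-robust fit, all genes without a low-count filter, DESeq2 1.42.0, the title letter as a block, the sons alone, the spread of all 24 libraries, the choroid plexus level or the opposite-strand percentage as a covariate, and each library left out in turn. The sex comparison within a sire treatment and the glucocorticoid list without 4 members were added after seeing the data. Of the called genes, 10 higher and 39 lower have exons opposite a coding exon of another gene, as have 3306 of those tested. Promoter windows were RefSeq's on GRCm38.p6, 300 bases long.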

Additional observations from a re-analysis of the deposited data

Results flagged for a closer look

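Each value in this section is the difference between the log2 fold change of sons and that of daughters in the dorsal hippocampus (sons minus daughters), tested with edgeR in the fit of the 12 dorsal libraries and past the adjusted threshold of 0.05. These genes stood out because the 2 sexes differed under the same contrast, and the values rest on the same libraries of sons as the report. A negative value means a lower fold change in sons.

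For ER folding and unfolded protein response genes, the differences were Pdia6 (-1.05), Hyou1 (-0.94), Sdf2l1 (-1.56), Hsp90b1 (-1.09), Hspa5 (-1.16), Manf (-1.09), Creld2 (-1.02), Calr (-0.84), Xbp1 (-0.74), Derl3 (-2.65), Herpud1 (-0.57) and Sel1l (-0.44). Among cytosolic heat shock proteins and their cofactors, the values were Stip1 (-0.93), Hsph1 (-0.73), Hspa1b (-1.09), Hspa1a (-0.91), Ahsa1 (-0.59), Fkbp4 (-0.74), Chordc1 (-0.91), Hspb1 (-1.72), Hspa8 (-0.52) and Cryab (-1.20). In glucocorticoid-induced genes, the sexes differed at Arrdc2 (-1.21), Xdh (-1.61), Sgk1 (-1.04), Klf15 (-0.62), Sult1a1 (-1.14) and Zbtb16 (-0.89). For RNA-binding and splicing genes, the differences were Rbm3 (1.84), Cirbp (1.55), Hnrnpdl (0.79), Srsf5 (0.68) and Ddx17 (-0.49). Among vessel, iron and smooth muscle genes, the values were Tfrc (1.31), Itm2a (0.84), Gkn3 (2.47), Slc16a1 (0.55), Slc2a1 (-0.66), Myl9 (1.22) and Myh11 (1.75). In clock and immediate early genes, the sexes differed at Dbp (1.62), Junb (1.09) and Egr4 (1.03). For imprinted genes, the differences were Peg10 (-2.19), Asb4 (-3.01) and Peg3 (-0.57). Among inflammatory genes, the values were Lcn2 (-9.09) and S100a8 (-4.10). Further genes with such a difference were Pdzd2 (-1.22), Arid5b (-1.24), Eml2 (1.0), P2ry12 (0.55), Matk (0.86), Akr1c14 (2.12), Irs2 (-0.50), Kmt2d (-0.47), Olig2 (-0.67), Gad1 (-0.75) and Gad2 (-0.83). Gad1 and Gad2, which make the transmitter GABA, passed this test and not that of sons alone.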

How the results depend on the processing

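The 341 genes called in dorsal sons became 875 with DESeq2 (331 of the 341 among them), 647 with the spread of all 24 libraries (319 among them), 144 with the opposite-strand percentage as a covariate (139 among them), and 87 to 624 when 1 library was left out. RLE scaling gave 325, a non-robust fit 328, all genes without a low-count filter 346, the sons alone 348 (239 among the 341) and the choroid plexus covariate 450, all within 1.5 times. The sex difference, 428 genes, was 1259 with DESeq2 and 76 to 837 when 1 library was left out. The region difference stayed at 0 genes in every refit except DESeq2, which called 1, and was 0 with the animal as a replicate block. With the title letter as a replicate block the counts were 164 for the sons (156 among the 341) and 217 for the sex difference. The labels do not say what the letter marks, so the letters were not taken as pairs in the main fit. Deviations of same-letter sons from their group means correlated at 0.19, 0.065 and 0.3 over genes. For sons of different letters the correlations were 0.015, -0.22, 0.11, -0.18, -0.23 and -0.062. Deviations from a group mean cancel out within the group, so positive same-letter values push the other values down. The comparison therefore cannot decide whether the letters mark pairs. What the letters share was not tested. Of the values recomputed for single genes and lists, 3321 kept their side of the threshold, 529 fell below it and 66 moved past it. A change of sign was counted as a reversal only for genes called in the main fit or in that refit, and 0 were found. Genes called in neither could change sign and still count among the 3321. Over the refits without 1 library, Chrna7 ranged from -0.22 to 0.08 and the choroid plexus marker Clic6 from -1.53 to 1.72. Leaving out 1 son leaves 2 libraries in that group, and genes near the low-count filter, such as S100a8, S100a9 and Derl3, rest on few counts.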

Other observations

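The genes in this section were chosen one by one after their values were seen and stand for no list or pathway, and all tests are edgeR's quasi-likelihood test in the same fit. Among single genes that were lower in nicotine-sired sons were the cytokine receptor subunit Il6st (-0.35 ± 0.07, adjusted p = 0.0258), the kinase Jak2 (-0.42 ± 0.07, adjusted p = 0.0137) and the transcription factor Stat3 (-0.39 ± 0.08, adjusted p = 0.0344). Jak2 had 25.4, 24.9 and 27.0 CPM in nicotine-sired sons and 37.1, 33.2 and 33.2 CPM in saline-sired sons. The protease inhibitor Timp1 was low in all sons, at 0.172, 0.179 and 0.181 CPM in nicotine-sired sons and 0.730, 0.844 and 0.644 CPM in saline-sired sons (-2.04 ± 0.39, adjusted p = 0.0249). The ER glucosyltransferase Uggt1 (-0.46 ± 0.07, adjusted p = 0.00582) and the ER lectin Mlec (-0.47 ± 0.06, adjusted p = 0.00295) were lower as well. The collagen-modifying hydroxylases P4ha1 (-0.48 ± 0.08), P4ha2 (-0.64 ± 0.13) and Plod1 (-0.47 ± 0.10) passed too.

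The inositol transporter Slc5a3 had 31.9, 30.0 and 26.5 CPM in nicotine-sired sons and 52.2, 46.3 and 59.3 CPM in saline-sired sons (-0.84 ± 0.12, adjusted p = 0.0063). The glutamine transporters Slc38a1 (-0.37 ± 0.08) and Slc38a2 (-0.43 ± 0.09) were also lower. The RNA-binding proteins Hnrnph3 (-0.36 ± 0.06), Hnrnpm (-0.30 ± 0.06) and Hnrnpc (-0.35 ± 0.07) fell. Of chromatin remodellers, Chd2 had 37.7, 35.2 and 35.2 CPM in nicotine-sired sons and 48.7, 45.2 and 52.9 CPM in saline-sired sons (-0.44 ± 0.07, adjusted p = 0.00752). Among vessel genes in no list, the caveolar protein Cav1 (0.61 ± 0.11) and the adhesion molecule Mcam (0.69 ± 0.12) rose. Cav1 had 14.5, 14.8 and 15.2 CPM in nicotine-sired sons and 10, 8.47 and 10.5 CPM in saline-sired sons. Inhbb, an activin subunit gene, was higher in nicotine-sired sons (0.76 ± 0.16, adjusted p = 0.0325) and did not pass in daughters (-0.78, adjusted p = 0.164), and sons minus daughters the log2 fold changes differed by 1.54 (adjusted p = 0.00753).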
